A study of Mus musculus with 32 samples.

Results

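Short protein-coding genes that were more abundant in the knockout are described here, in 2 organs where nearly all short genes were less abundant. The genes were chosen by their mean normalised counts and their length. A gene was included where, in the liver or the ileum table, it was protein-coding and shorter than 3000 bases, had a mean of at least 50 normalised counts (reads scaled to library size by the authors) over 8 libraries, and was on average more abundant in the 4 Khk KO libraries than in the 4 WT libraries. Genes whose names began with any of 29 prefixes of large families, such as Slc, Cyp, Zfp, Rpl and Psm, were left out. The rule found 35 genes in liver and 44 in ileum, 70 in all, of 8706 genes in either table. 9 of the 70 satisfied it in both organs, 26 in liver alone and 35 in ileum alone. Because the liver and ileum contrasts chose the genes, their ratios in the organ that chose them are given as descriptions. Tests are counted only for the genes chosen in 1 organ, read in another.

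The series compared male mice lacking Khk, which encodes the fructose-phosphorylating enzyme ketohexokinase, with WT male mice, and asked how this enzyme bears on iron homeostasis. RNA with poly(A) tails from liver and from duodenum, jejunum and ileum was sequenced in 32 libraries, 4 per genotype and organ. The deletion is given only as Khk deficiency: the labels name no allele, strain, age or diet, nor whether 1 mouse gave several organs, so p-values measure the spread between these samples. Khk itself was at 4.59% to 11.1% of the WT mean in the KO of the 4 organs (exact two-sided permutation test, p = 0.0286 in each, the smallest that 4 against 4 libraries allow). Each organ had a table of its own, limited to genes whose unadjusted p was under 0.05. A gene that was not in a table therefore has no value there, and a gene that was in it had already passed that limit. Reads of the genes in the tables summed to 7505439 to 14331517 per liver library, 6531593 to 9149003 in ileum, 3053896 to 4325568 in jejunum and 1722220 to 3549978 in duodenum. Of 8 hepatocyte markers, 6 were in the liver table, and their summed normalised counts ran from 344236 to 370694 in Khk KO and from 389436 to 581136 in WT. Of 9 enterocyte markers, 3 were in the ileum table, with sums of 16379 to 24722 in Khk KO and 29505 to 53579 in WT. The endothelial markers Stab2, Vwf and Kdr summed to 2364 to 2495 in the Khk KO livers and 681 to 1857 in the WT livers, without overlap. Of the other lists in liver, erythroid markers (5 of 7 in the table, all lower) summed to 2967 to 3515 in Khk KO and 4584 to 10959 in WT, and B and plasma cell markers (3 of 8, all lower) to 66.3 to 149.9 and 231 to 415. Macrophage and Kupffer cell markers (6 of 10, all lower) summed to 3247 to 4536 and 4348 to 11958, with overlap. Stellate cell and fibroblast markers (4 of 7, 3 higher) summed to 1958 to 3465 and 2169 to 3106, with overlap. The sums also overlapped for T cell (2 of 10), adipocyte (3 of 6) and enterocyte markers (2 of 9), all lower. The same held for smooth muscle markers (2 of 7, 1 higher and 1 lower). These lists also differed in gene length. In liver, 5 of 5 erythroid, 6 of 6 macrophage and 4 of 6 hepatocyte markers present counted as short coding genes, as did 3 of 3 enterocyte markers in ileum. In liver, 0 of 3 endothelial and 0 of 4 stellate cell markers did. Few counted as short among B and plasma cell (1 of 3), adipocyte (1 of 3) and T cell markers (0 of 2) in liver. Counting as short also required a mean of at least 50 normalised counts, so these tallies do not give the length of weaker markers. The 2 T cell markers together had under 50 normalised counts in every liver, so neither could count. The parts of gene length and of these cell types in the results were not tested. In bulk tissue, fewer cells of a type and less RNA per cell cannot be told apart.

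The genes share a size and a direction rather than a pathway. As background, transcript length is not a functional class: short messages include those of ribosomal and mitochondrial proteins and of small secreted proteins, and also those of single enzymes and signalling inhibitors. Among the genes described here, some make or break down metabolites (Tat, Acnat1, Gys2), some attach lipids or sugars to proteins (Ptar1, Pggt1b, Alg12), some tag or refold proteins (Rnf125, Klhl11, Bag3), and some damp signalling (Socs3, Spry1, Dusp4). Protein prenylation, for example, adds an isoprenoid lipid from the sterol pathway to proteins such as small GTPases, and so anchors them to membranes.

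In liver, 1404 short coding genes met the same filters, of which the 35 made up 2.49%, and the median log2 ratio of Khk KO to WT over the 1404 was -0.66. In ileum the 44 were 3.50% of 1258 short coding genes, whose median was -0.55. Among coding genes of 3000 bases or more with the same mean, 71.1% were higher in Khk KO in liver and 70.8% in ileum. With all name families kept, the share that was higher climbed with length in liver from 1.16% below 1000 bases to 5.42% from 2000 to 3000 bases, 30.6% from 3000 to 5000 and 98.3% from 10000 bases upward. The ileum gave 0.59%, 5.84%, 28.2% and 98.7% in the same bins.

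**Figure D1:**
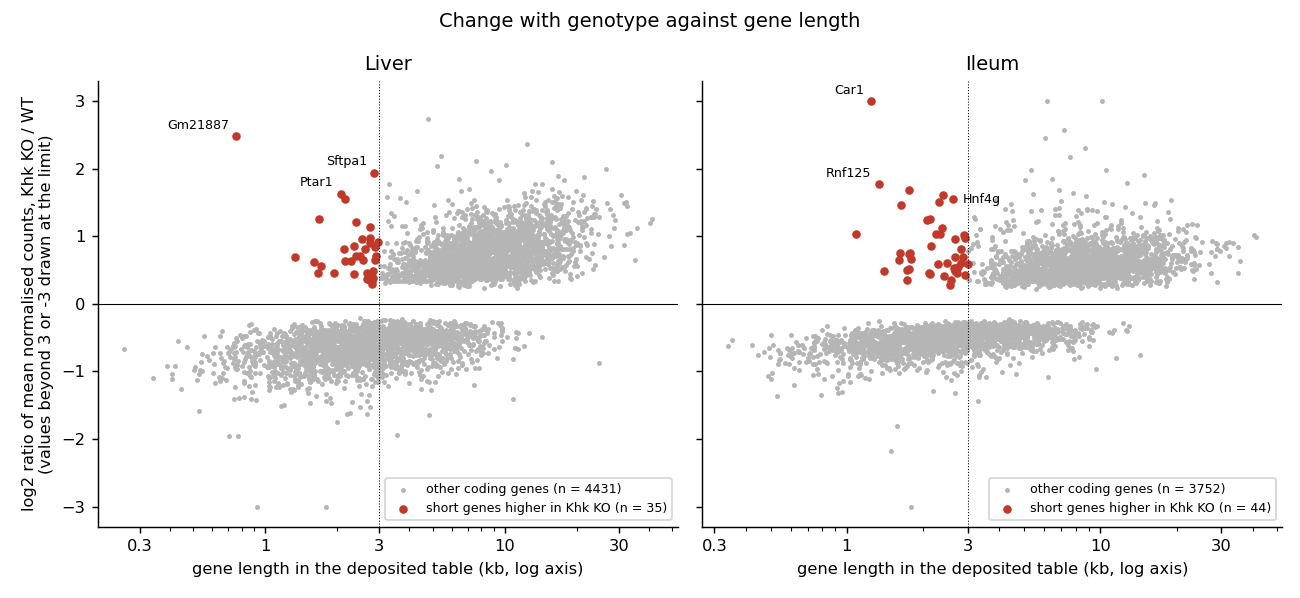
Log2 ratio of mean normalised counts, Khk KO over WT (vertical axis), against gene length in the deposited table (kb, log axis) for coding genes averaging 50 or more normalised counts in liver and ileum; red points are the 35 and 44 genes described here, grey points the other coding genes, and the dotted line marks 3 kb. Left of the line the red points lie above 0 and the grey points below 0. Genes with a left-out name are not drawn, among them 20 short ones in liver and 11 in ileum that were higher in Khk KO. Few points lie near 0, since the tables are limited by their p.

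Their ratios ran from 0.30 to 2.49 on the log2 scale in liver (median 0.70) and from 0.28 to 7.20 in ileum (median 0.69), and 7 and 14 of them exceeded 2-fold. Set beside the 200 coding genes nearest in table length, each gene lay above at least 92.5% of them in liver and 94.5% in ileum. For some of the genes the table length is far below the full exon length, as given below. The distance to the neighbours' median was 1.32 in the median in liver and 1.22 in ileum. The authors' deposited table gave an adjusted p under 0.05 to 22 of the 35 in liver and 21 of the 44 in ileum. The same held for 72.8% of all coding genes higher in Khk KO in the liver table and 63.4% in the ileum table (12.5% and 8.76% of all genes the authors adjusted over). The 4 Khk KO libraries lay above all 4 WT libraries for 14 of 35 in liver, where 64.4% of coding genes higher in Khk KO did (34.3% of the whole table), and for 18 of 44 in ileum, where 75.9% did (36.9%). A refit of the deposited read counts with edgeR's quasi-likelihood test, at a Benjamini-Hochberg adjusted p under 0.05, called 10 of 35 in liver (46.1% of coding genes higher in Khk KO, 7.19% of all genes adjusted) and 15 of 44 in ileum (55.1% and 7.5%). With the length trend of each library taken out, it called 25 and 28. Of all short coding genes, members included, it called 26 of 1404 in liver (1.85%) and 28 of 1258 in ileum (2.23%). Nearly all of those calls were members, so these shares are no separate background. Shares over all genes or over coding genes higher in Khk KO were not computed for this fit. These counts come from the contrasts that chose the genes, so nothing is read from them.

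The limits on length and on the mean passed between genes with like values. At the ratio limit the nearest genes differed in direction, since the tables hold few genes near 0. Just inside the ratio limit were Klf15 (log2 ratio 0.30) and Dnase2b (0.34) in liver and Isoc1 (0.28) and Il22ra1 (0.35) in ileum, while just outside it were Ephx2 (-0.21), Rgn (-0.25), Plp2 (-0.25) and Phf1 (-0.26). Vasn, at 3007 bases, missed the length limit in both organs with log2 ratios of 0.56 and 0.79, whereas A930033H14Rik (2969 bases) passed it in liver and Dusp19 (2992 bases) in ileum. Nr1h5, with a mean of 49.7 and a log2 ratio of 1.31 in liver, missed the limit on the mean, and Ptar1 passed it there at 50.7. Klhl11 passed in liver at 51.3 and missed in ileum at 47.8.

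The direction of these values follows from the rule, and they are given as a description. The members' median deviation from the organ mean (log2) ran from 0.26 to 0.40 in the Khk KO livers and from 0.29 to 0.45 in the Khk KO ilea. It ran from -0.51 to -0.10 in the WT livers and from -0.46 to -0.22 in the WT ilea. WT liver replicate 1 stood nearest to the Khk KO livers: its members lay at -0.10 and its other short coding genes at 0.02, where the other 3 WT livers had 0.31 to 0.61. In ileum, WT replicate 4 had 0.01 for the other short genes, where the others had 0.14 to 0.67. Without WT liver replicate 1 the rule still found 35 genes, and without WT ileum replicate 4 it found 45. No gene turned direction in its own organ when any 1 library was left out.

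Of 784 short coding genes that met the filters in both tables, 772 were lower in both organs, 9 were higher in both, 1 was higher only in liver and 2 only in ileum. The 9 were Acnat1, Cyb5d1, Ldlrad4, Mettl4, Pggt1b, Ptar1, Rnf125, Tat and Ubxn2a. They are 25.7% of the liver genes and 20.5% of the ileum genes. Amigo3 was the 1 higher only in liver, and Chac1 and Cfb were the 2 higher only in ileum. These counts depend on the choice of genes in both organs and carry no test.

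**Figure D2:**
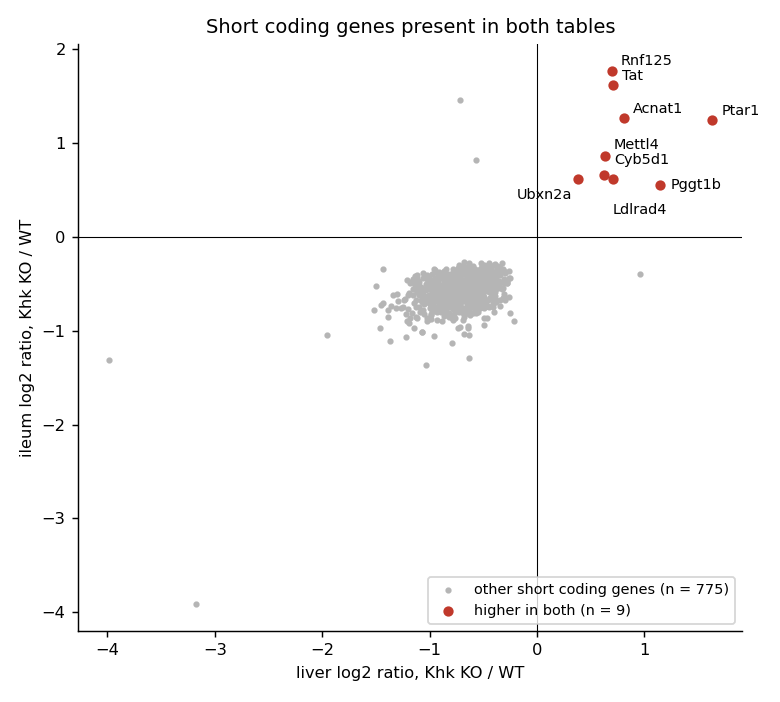
Log2 ratio of Khk KO over WT in ileum (vertical axis) against liver (horizontal axis) for the 784 short coding genes that met the filters in both tables. The 9 genes higher in both organs (red, named) lie in the upper right, and 772 of the other points (grey) lie in the lower left.

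The prenylation genes Ptar1 and Pggt1b were among the 9. Ptar1 encodes an alpha subunit of a prenyltransferase, which attaches a geranylgeranyl lipid to target proteins. It had 87.3, 66.3, 82.1 and 70.9 normalised counts in the Khk KO livers (76.6 ± 9.73, mean ± SD, n = 4) and 59.1, 10.8, 16.6 and 12.3 in the WT livers (24.7 ± 23.1). All 4 Khk KO livers were above the WT livers, and WT replicate 1 was by far the highest of its group. In ileum Ptar1 had 93.5, 96.4, 132 and 50.1 in Khk KO and 36.1, 39.5, 56.0 and 25.9 in WT, so that Khk KO replicate 4 overlapped the WT range. The ileum fold was 2.36 (edgeR log2 change 1.23 ± 0.34 SE), and the liver fold 3.10 (edgeR log2 change 1.67 ± 0.50 SE).

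Pggt1b encodes the beta subunit of the type I geranylgeranyl transferase (GGTase I), which attaches the same lipid. Its counts were 217, 216, 195 and 167 in the Khk KO livers and 116, 62.8, 66.5 and 114 in the WT livers. In ileum they were 287, 255, 289 and 289 in Khk KO against 199, 169.8, 201 and 196 in WT. The genotypes did not overlap in either organ. The folds were 2.21 in liver and 1.46 in ileum, with edgeR log2 changes of 1.17 ± 0.25 and 0.56 ± 0.14 (SE). Since both organs chose these 9 genes, no p-value is given for them singly in liver or ileum.

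The other genes of this machinery were listed after these values were known. Fnta, the alpha subunit that Pggt1b pairs with and that the farnesyl-adding enzyme shares, was lower in both organs, with log2 ratios of -0.49 in liver and -0.45 in ileum (adjusted p = 0.0388 and 0.0128 in the authors' deposited table, and 0.0898 and 0.0202 in edgeR, so that the liver call was lost in the refit). In ileum Fntb had a ratio of -0.52 and was not called (adjusted p = 0.0621 in the authors' deposited table, 0.0526 in edgeR). Rabggta (-0.46) was called lower there in the deposited table (adjusted p = 0.0492) but not in edgeR (0.0726). Chm, a Rab escort protein that presents Rab GTPases for prenylation, was called higher in ileum by both (0.67, adjusted p = 0.00155 and 0.00865). Fnta, Fntb and Rabggta are 3012 to 3987 bases long and Chm 6780 bases. Chml, a related escort gene of 6975 bases, had a ratio of 0.98 in liver and was not called (adjusted p = 0.0988 in the deposited table, 0.174 in edgeR). Among these added genes, the enzyme subunits had ratios below 0 and the escort genes ratios above 0. The subunits were also the shorter genes. Of coding genes of 3000 to 5000 bases, 30.6% were higher in liver and 28.2% in ileum. From 5000 to 10000 bases the shares were 81.9% and 81.5%. The part of length in this split was not tested.

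Tat encodes tyrosine aminotransferase, which begins tyrosine breakdown and is known as a glucocorticoid-induced liver gene. It was the most abundant of the genes in liver per length, at 1572 FPKM in Khk KO and 980.4 in WT. The Khk KO livers had 29362, 37441, 46832 and 65023 normalised counts and the WT livers 27725, 20392, 27758 and 33812. Khk KO replicate 1 was below the highest WT liver. In ileum, at 23.9 and 7.75 FPKM, Tat had 1023, 2199, 488 and 1080.1 counts in Khk KO against 612, 387, 322 and 242 in WT, with Khk KO replicate 3 inside the WT range. Its edgeR log2 change was 0.73 ± 0.22 (SE) in liver and 1.65 ± 0.40 in ileum.

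Acnat1 encodes an acyltransferase that joins fatty acids to amino acids such as taurine. It had 220.0, 307, 283 and 294 counts in the Khk KO ilea (276 ± 38.6) and 103, 119, 116 and 123 in the WT ilea (115 ± 8.57). In liver the counts were 628, 539, 834 and 667 in Khk KO and 430.1, 354, 361 and 376 in WT. The genotypes were fully apart in both organs. The edgeR log2 change was 1.26 ± 0.17 (SE) in ileum and 0.84 ± 0.17 in liver. Baat, the neighbouring bile acid conjugating gene, which is 1941 bases long and was looked at after these values were known, was lower in both organs, at -0.55 in liver and -0.74 in ileum. Acnat1 has a close paralogue, Acnat2, which was in none of the tables, so reads that fit both could be split between them.

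Rnf125 encodes a membrane-bound ubiquitin ligase that acts in antiviral signalling. Its ileum counts were 130.3, 192, 106 and 106 in Khk KO and 54.7, 29.6, 10.4 and 62.1 in WT, without overlap. In liver they were 1158, 1159, 916 and 739 against 1008, 384, 506 and 554, and WT replicate 1 lay inside the Khk KO range. The fold was 3.41 in ileum and 1.62 in liver. The edgeR log2 change in liver was 0.72 ± 0.28 (SE) with all libraries and 1.03 without WT replicate 1.

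The other 4 shared genes had log2 ratios of 0.39 to 0.71 in liver and 0.61 to 0.86 in ileum. Ubxn2a, an adaptor of the protein-extracting ATPase p97, had 1490.4, 1475, 2012 and 2022 counts in the Khk KO ilea and 1558, 916, 1098 and 1013 in WT (edgeR log2 change 0.63 ± 0.15 SE), with WT replicate 1 inside the Khk KO range. Cyb5d1, a protein with a cytochrome b5-like haem-binding domain, had 167, 133, 166 and 187 in the Khk KO ilea against 95.7, 84.4, 112 and 123 in WT, without overlap. Mettl4, a methyltransferase of adenine in nucleic acids, had log2 ratios of 0.63 in liver and 0.86 in ileum, with overlap in both. Ldlrad4, a membrane inhibitor of TGF-beta signalling, had 0.71 in liver, without overlap, and 0.61 in ileum, with overlap.

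**Figure D3:**
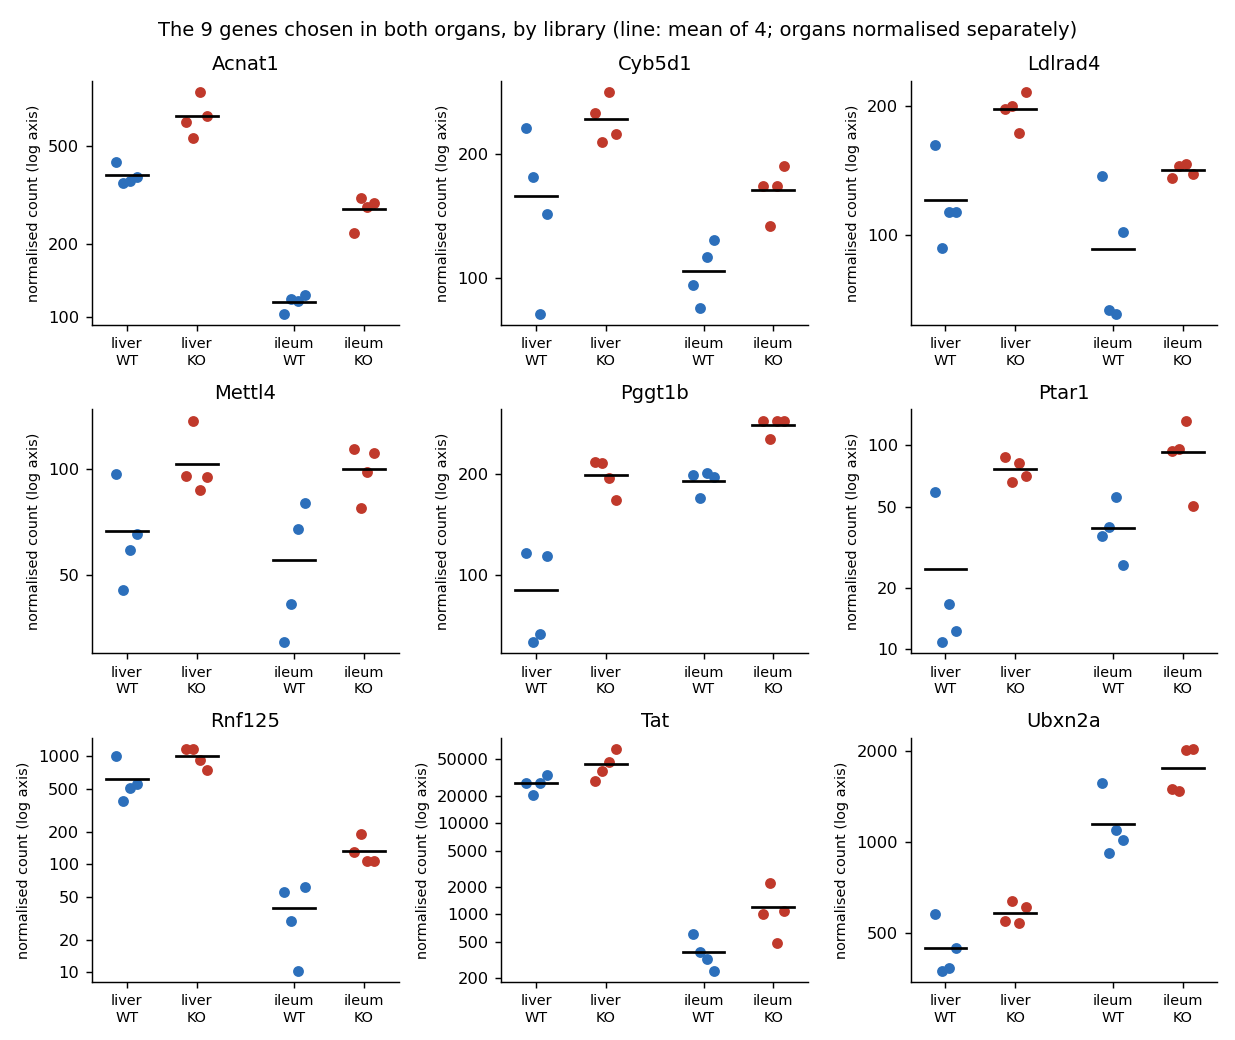
Normalised counts (log axes) of the 9 genes chosen in both organs, with 1 point per library in liver and ileum, WT in blue and Khk KO in red, and a line at the mean of 4; the organs were normalised separately. The Khk KO and WT points are fully apart in both organs for Acnat1 and Pggt1b, and WT liver replicate 1 is the highest WT liver for 8 of the 9, all but Tat.

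Sequences upstream of the RefSeq start (GRCm38.p6) were available for 45 of the 70 genes. They are printed for 4 shared genes whose RefSeq start lay within 152 bases of the start in the table, because these genes were higher in both liver and ileum. The windows are the 250 bases before the start, given 5′ to 3′ on the gene's strand: chr19:23687150-23687399 (plus strand) for Ptar1, chr8:109990186-109990435 (plus) for Tat, chr12:4907554-4907803 (minus) for Ubxn2a and chr17:94750020-94750269 (minus) for Mettl4. Capitals mark matches, on either strand, to the GC box GGGCGG, the CCAAT box CCAAT or the cAMP response element TGACGTCA.
Ptar1: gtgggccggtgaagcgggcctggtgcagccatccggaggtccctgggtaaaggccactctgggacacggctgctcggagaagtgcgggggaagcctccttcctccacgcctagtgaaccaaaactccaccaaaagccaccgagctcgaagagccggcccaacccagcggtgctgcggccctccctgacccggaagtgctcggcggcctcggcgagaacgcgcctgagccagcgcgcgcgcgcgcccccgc
Tat: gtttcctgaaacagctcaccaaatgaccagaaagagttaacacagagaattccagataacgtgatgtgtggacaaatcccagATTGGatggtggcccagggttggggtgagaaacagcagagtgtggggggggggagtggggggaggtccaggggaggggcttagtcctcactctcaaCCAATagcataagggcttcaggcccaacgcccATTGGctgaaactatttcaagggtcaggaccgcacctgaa
Ubxn2a: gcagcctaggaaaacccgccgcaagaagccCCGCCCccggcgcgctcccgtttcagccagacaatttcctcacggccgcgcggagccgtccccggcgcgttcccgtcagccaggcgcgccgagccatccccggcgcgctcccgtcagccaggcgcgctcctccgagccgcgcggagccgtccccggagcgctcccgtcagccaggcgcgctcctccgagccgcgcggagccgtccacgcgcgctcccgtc
Mettl4: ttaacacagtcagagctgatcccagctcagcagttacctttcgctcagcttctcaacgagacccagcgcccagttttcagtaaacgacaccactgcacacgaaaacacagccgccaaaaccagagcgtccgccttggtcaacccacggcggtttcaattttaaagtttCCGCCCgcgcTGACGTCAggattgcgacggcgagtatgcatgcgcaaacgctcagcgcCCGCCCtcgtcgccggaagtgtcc

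No match was common to all 4 windows: Tat carried CCAAT boxes, Ubxn2a a GC box, Mettl4 GC boxes and a cAMP response element, and Ptar1 none of them. Over the 45 windows, GGGCGG occurred in 24 (53.3%), against 32.9% of 27025 RefSeq windows of the same length. The 27025 were the first window listed for each RefSeq gene, whether or not it was expressed in these organs. For the 45 genes the window nearest the start in the table was taken, so the 2 sets were not chosen alike. CCAAT occurred in 33.3% against 34.5%, TATAAA in 13.3% against 13.0%, the E-box CACGTG in 6.67% against 6.05%, and TGACGTCA in 2.22% against 1.62%. The glucocorticoid receptor half-site TGTTCT occurred in 6.67% against 16.2%. The HNF4 motif CAAAGTCCA, the STAT motif TTCCNGGAA and the D-box TTATGTAA were in none of the 45 windows, and in 0.381%, 0.914% and 0.862% of all. The windows of the 45 genes also had a median GC content of 58.0%, against 52.0% of all, and GGGCGG is itself made of G and C. A match is a run of letters and does not show that a factor binds.

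Genes chosen in 1 organ were then read in the other. The 2 organs may share mice, which the labels leave unstated. Of the 35 liver genes, 11 were in the ileum table, and 10 of these were higher in Khk KO and 1, Amigo3, lower. The authors' deposited table called 8 of them higher, where it called 8.76% of all genes adjusted and 1.12% of the 1248 short coding genes not chosen in liver. Presence in the table already required a low p. Of coding genes higher in Khk KO there, 63.4% were called, and of the 35 other short genes that were higher, 14. The 8 were Acnat1, Cyb5d1, Klhl11, Pggt1b, Ptar1, Rnf125, Tat and Ubxn2a. The edgeR refit called 7, where it called 0.721% of the other short genes and 55.1% of coding genes higher in that table. With the length trend taken out it called 9, and 20 of the 1248 other short genes. Among the other short genes in the ileum table, 2.80% were higher. With edgeR, leaving out 1 ileum library at a time gave 1 to 8 calls, the lowest without Khk KO replicate 1, and 10 genes stayed higher each time.

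Of the 44 ileum genes, 13 were in the liver table, 11 of them higher and 2, Cfb and Chac1, lower. The authors' deposited table called 7 higher, where it called 12.5% of all genes and 1.15% of the 1393 short coding genes not chosen in ileum. Of coding genes higher in Khk KO in that table, 72.8% were called, and of the 26 other short genes that were higher, 16. The edgeR refit called 5 (0.431% of the other short genes and 46.1% of coding genes higher in that table). Among the other short genes in the liver table, 1.87% were higher. With edgeR, leaving out 1 liver library gave 0 calls without any of the 4 Khk KO replicates or without WT replicate 2 or 4, 2 calls without WT replicate 3, and 10 without WT replicate 1. The direction was the same each time for all 11.

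Klhl11 and C7 were genes of 1 organ that passed in the other. Klhl11, a substrate adaptor of cullin ubiquitin ligases, was chosen in liver and just missed the limit on the mean in ileum. Its ileum counts were 85.1, 67.6, 64.9 and 75.2 in Khk KO and 36.1, 8.08, 22.8 and 22.8 in WT, without overlap (edgeR log2 change 1.75 ± 0.37 SE, adjusted p = 0.0161). C7, a component of the complement membrane attack complex, was chosen in ileum and had 35.5, 27.1, 104 and 42.7 counts in the Khk KO livers and 6.57, 22.7, 21.2 and 8.54 in the WT livers. These groups did not overlap (edgeR log2 change 1.82 ± 0.53 SE, adjusted p = 0.0441). The C7 call was lost without any 1 of the 8 livers, and the change was 1.23 without Khk KO replicate 3, the highest library.

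Chac1, a glutathione-degrading enzyme induced in the integrated stress response, had opposite directions. It had 395, 279, 137 and 126 counts in the Khk KO ilea against 159, 78.2, 48.7 and 54.9 in WT, a fold of 2.75. In liver it had 71.0, 93.4, 63.1 and 70.0 in Khk KO against 51.4, 145, 147 and 147 in WT, where it did not pass the threshold (edgeR log2 change -0.69 ± 0.32 SE, adjusted p = 0.176). Cfb, factor B of the alternative complement pathway, had a log2 ratio of 0.82 in ileum and -0.57 in liver (edgeR adjusted p = 0.125). Amigo3, a neuronal adhesion protein, had 0.96 in liver and -0.40 in ileum (edgeR adjusted p = 0.171).

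The jejunum table held 9 of the 70 genes, all 9 higher in Khk KO, against 4.56% of 504 other short coding genes. None passed the adjusted threshold in the authors' deposited table or in edgeR, where the deposited table called 0.536% of all genes higher (4.67% of coding genes with a ratio above 0) and edgeR 0. DESeq2, tried after the values were seen, called 1 of the 9, Uprt (adjusted p = 0.0405), and 2.88% of all genes higher. At an unadjusted p under 0.05, which the table's own limit nearly fixes, edgeR passed 8 of the 9 and 16 of the 23 other short coding genes that were higher. The Khk KO libraries were fully above the WT libraries for 7 of 9, where 64.1% of coding genes higher in that table and 33% of all its genes were. Btnl4 had 1216, 1592, 1571 and 1841 counts in Khk KO against 615, 1151, 1035 and 1123 in WT (edgeR adjusted p = 0.237). Uprt (log2 ratio 0.73), Hnf4g (0.66), Acnat1 (0.57), Btnl6 (0.54), B4galnt2 (0.51), Il22ra1 (0.48), Isoc1 (0.36) and Gm9938 (1.41) completed the 9.

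The duodenum table held 8 of the 70, all 8 higher, against 8.98% of 401 other short coding genes. None passed the adjusted threshold in the authors' deposited table, edgeR or DESeq2, where the deposited table called 0.128% of all genes higher (1.37% of coding genes with a ratio above 0) edgeR 0 and DESeq2 0.205%. At an unadjusted p under 0.05, again nearly fixed by the table's limit, edgeR passed 7 of the 8 and 32 of the 36 other short coding genes that were higher. The libraries were apart for 6 of 8, where 50.1% of coding genes higher there and 20% of all genes of that table were. Hnf4g had 3461, 4017, 3708 and 5874 counts in Khk KO against 848, 2839, 2854 and 3276 in WT (edgeR adjusted p = 1). The others were Bcl2l15 (log2 ratio 0.88), Pmaip1 (0.67), Adap2 (0.59), Lyve1 (0.50), Cyb5d1 (0.46), Alg12 (0.43) and Bag3 (0.25). Over the 4 organs, 42 genes were in 1 table, 24 in 2 and 4 in 3, and all 4 of the last, Acnat1, Cyb5d1, Gm9938 and Hnf4g, were higher in each.

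**Figure D4:**
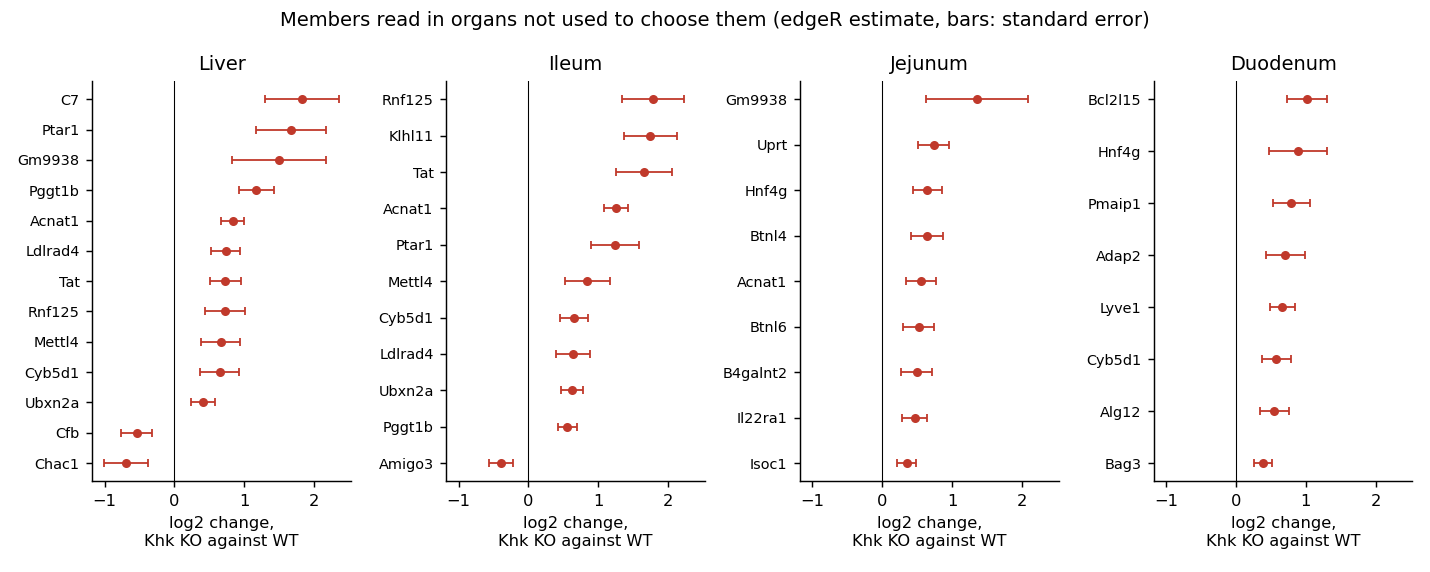
Log2 change of Khk KO against WT from the edgeR refit (horizontal axis, point) with its standard error (bar) for the genes that were in the table of an organ other than one that chose them; the 9 genes chosen in both organs appear in liver and in ileum. In liver 11 of 13 lie above 0, in ileum 10 of 11, in jejunum 9 of 9 and in duodenum 8 of 8.

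Hnf4g, which encodes the nuclear receptor HNF4-gamma of the intestinal epithelium, had one of the clearest separations in ileum. It had 3199, 3265, 3946 and 3377 counts in Khk KO (3447 ± 341) and 1355, 811, 1344 and 1188 in WT (1175 ± 254), a fold of 2.93. The lowest Khk KO ileum was more than 2-fold above the highest WT ileum. Its jejunum counts were 4521, 3806, 4718 and 6231 against 2355, 3212, 2649 and 3953, where Khk KO replicate 2 fell below WT replicate 4 (edgeR log2 change 0.65 ± 0.21 SE, adjusted p = 0.237). Hnf4g was not in the liver table, and Hnf4a was in none of the 4.

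Metabolic genes numbered 6 in liver and 11 in ileum, with median log2 ratios of 0.64 and 1.03. Beside Tat and Acnat1, liver held Car3, the muscle and liver carbonic anhydrase III, with 41655, 49395, 44305 and 33543 counts in Khk KO and 37936, 28783, 16297 and 24573 in WT. Gys2, the liver glycogen synthase, had 7887, 6721, 6312 and 7057 against 6599.8, 4602, 4869 and 5609. Only WT replicate 1 reached the Khk KO range for either gene. Dnase2b, an acid nuclease, had a ratio of 0.34. In ileum Uprt, a homologue of uracil phosphoribosyltransferase, had 192, 222, 331 and 291 counts against 122, 72.8, 71.5 and 97.3, a fold of 2.85 without overlap. Tmppe, a membrane phosphoesterase, had 195, 231, 155 and 184 against 65.9, 93.4, 105 and 126, also without overlap. Mfsd2a, the lysophosphatidylcholine transporter (1.03), Pla2g5, a secreted phospholipase (0.69), Prps1l3, a phosphoribosyl pyrophosphate synthetase paralogue (0.51), and Isoc1 (0.28) completed the group with Chac1 and Cyb5d1. Of these 4, only Isoc1 was without overlap.

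Car1, the erythroid and colonic carbonic anhydrase I, had the highest ratio in ileum, and it rested on 2 libraries. Khk KO replicates 3 and 4 had 5682 and 970.3 counts, while replicates 1 and 2 had 5.37 and 0 and the WT ilea 0, 35.9, 9.33 and 0. The 147-fold ratio of means rests on those 2 libraries. The edgeR refit returned no value for Car1. Of 7 erythroid markers, 3 were in the ileum table, all lower, with summed counts of 177 to 363 in Khk KO and 376 to 737 in WT. The part of colonic cells in the high libraries was not tested.

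Signalling genes numbered 7 in liver and 8 in ileum. In liver Cabyr, a calcium-binding protein known from sperm, had 624, 785, 259 and 282 counts in Khk KO and 238, 95.2, 123 and 206 in WT. Pik3ap1, an adaptor that links receptors to PI3-kinase, had 932, 1149, 826 and 977 against 785, 486, 374 and 562. Both were without overlap. The feedback inhibitors Dusp4, a MAP kinase phosphatase (0.90), Spry1, a receptor tyrosine kinase inhibitor (0.71), and Rgs16, a G protein inhibitor (0.45), overlapped between the genotypes, and Plppr2, a phospholipid phosphatase-related protein (0.98), did not. In ileum Socs3, the feedback inhibitor of cytokine receptors, had 1715, 4092, 1188 and 1647 against 926, 1148, 1019 and 1188, so its 2.02-fold ratio leaned on Khk KO replicate 2. Il22ra1, a subunit of the interleukin-22 receptor, had 0.35. Adgrg7, an intestinal adhesion receptor, had 4006, 3875, 4622 and 4242 against 2838, 2909.6, 3152 and 3109.5, and Adap2, a regulator of ARF6, had 477, 426, 491 and 504 against 191, 292, 368 and 339.5. The last 2 were without overlap. Dusp19 (0.60), Pstpip2 (0.49) and the GTPase Gem (0.45) completed the group with Ldlrad4.

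Secreted, matrix and surface proteins numbered 5 in liver and 8 in ileum. Sftpa1, the collectin surfactant protein A, had 200.5, 76.3, 115 and 106 counts in the Khk KO livers and 46.0, 16.2, 44.6 and 22.8 in WT, a fold of 3.85 without overlap. Chad, a cartilage matrix protein (1.26), and Ctgf, a matrix-associated growth factor (0.84), overlapped, and Gpc4, a heparan sulphate glypican, had 1163, 1282, 1239.9 and 1199 against 1121, 795, 828 and 822. Gpc4 was without overlap, and WT replicate 1 was the highest of its group. In ileum the butyrophilin-like genes Btnl4 and Btnl6, of a family that sustains intraepithelial T cells, were both without overlap. Btnl4 had 1914, 1804, 1883 and 2039 against 919, 1145, 1375 and 1159, and Btnl6 had 5167, 5452, 6172 and 5789 against 4029, 3896, 4153 and 3658. The pseudogenes Btnl5-ps and Btnl7-ps, of 2129 and 1763 bases, were also higher in ileum, with log2 ratios of 0.65 and 0.39 (edgeR adjusted p = 0.00862 and 0.0307). These 4 are near copies, so their reads may be shared, and the pseudogenes were looked at after the values were known. Of 10 T cell markers 4 were in the ileum table, all lower, with sums of 183 to 708 in Khk KO and 486 to 1014 in WT.

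Lyve1, the hyaluronan receptor of lymphatic endothelium, had 412, 372, 387 and 493 counts in the Khk KO ilea and 261, 331, 292 and 356 in WT. Lyve1 was itself 1 of 6 endothelial markers, of which Kdr alone was also in the ileum table, and their summed counts were 964 to 1063 in Khk KO and 651 to 832 in WT. The part of endothelial cell number in the Lyve1 difference was not tested. Mmp13, a collagenase, had 192, 194, 178 and 151 against 128, 121, 111 and 149. Crybb3, a crystallin (1.04), C7 (0.96), Cfb (0.82) and Ccdc3 (0.69) overlapped between the genotypes.

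Glycan and lipid-modifying enzymes numbered 1 in liver and 4 in ileum. Alg12, a mannosyltransferase of N-glycan assembly, had 106, 110.5, 136 and 187 counts in the Khk KO livers against 59.1, 99.5, 80.9 and 58.8, without overlap. In ileum Zdhhc13, a palmitoyltransferase, had 758, 905, 902 and 864 against 619, 616, 621 and 724, also without overlap. B4galnt2, which makes the Sda carbohydrate antigen of gut glycans, had 4956, 4902, 6240.2 and 5835 against 3882, 3719, 5183 and 4418, with overlap. Chst4, a glycan sulphotransferase (0.60), and Hpse2, a heparanase relative (0.75), overlapped.

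Among protein turnover genes in liver, Atad1, an ATPase that pulls misplaced proteins from the mitochondrial surface, had 1062, 1053, 949.6 and 1015 counts against 913, 698, 601 and 692. Bag3, a co-chaperone of Hsp70, had 551, 561, 883 and 751 against 549, 337, 297 and 576, and Pdilt, a disulphide isomerase-like protein, had a ratio of 0.64. Of the transcription and RNA genes in liver, Kin, a nucleic acid binding protein, had 263, 252, 248 and 259 against 235, 146, 129 and 179, with the Khk KO livers within a narrow range. Klf15, a regulator of amino acid breakdown and glucose output, had the lowest ratio, 0.30, and Hmgn5, a nucleosome-binding protein, had 0.46. In ileum Eif3j2, a copy of an initiation factor subunit gene (1.12), and Gm14325 (0.75) overlapped. The cell death genes Pmaip1 (0.53) and Bcl2l15 (0.45) and the trafficking or cytoskeletal genes Exoc6 in liver (0.36) and Ipp in ileum (0.45) were the remainder, and of these 4 Exoc6 and Ipp were without overlap.

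5 genes had no role stated here. Gm21887, of 759 bases and on the X chromosome, had the highest ratio in liver, and its counts were 304, 194, 45.2 and 19.1 in Khk KO and between 19.7 and 29.4 in WT. Khk KO replicates 1 and 2 carried that 5.62-fold ratio, while replicate 4 was below every WT liver. Gm9938 in ileum had 68.2, 70.3, 119 and 69.4 against 41.0, 18.9, 31.1 and 10.4, without overlap. A930033H14Rik (0.91) and Gm17783 (1.03) overlapped, and Tmem220 (0.46) did not.

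Gene groups listed for these tissues held few of the genes. Of 71 immediate early and stress-response regulators, 14 were in the liver table, and 6 were higher and 4 lower at an adjusted p under 0.05 in the authors' deposited table. The short ones numbered 6, of which Klf15 alone had a ratio above 0. In ileum 12 were present, 2 called higher and 1 lower, and Socs3 was the 1 of 8 short ones with a ratio above 0. The median log2 ratio of the list was 0.42 in liver and -0.39 in ileum, against -0.30 and -0.31 for all coding genes of those tables. The circadian list had 9 of 22 in the liver table, 8 called higher, and 7 in ileum, 3 called higher, and none of them was short. Of all coding genes with a ratio above 0, 72.8% were called in liver and 63.4% in ileum, and of those with a ratio below 0, 74.9% and 47%. Of 43 translation factors, 10 short ones were in the ileum table and Eif3j2 alone had a ratio above 0, and of 31 histones and small chromatin proteins, 10 short ones were in the liver table and Hmgn5 alone did. The mitochondrial ribosome and assembly list had 51 short genes in the liver table and 39 in ileum, the ubiquitin list 6 and 6, the antigen presentation list 12 and 12, and the redox list 12 and 10. All of these short genes had ratios below 0, as did 1369 of the 1404 short coding genes in liver and 1214 of the 1258 in ileum. The longer genes of the mitochondrial list included, the authors' deposited table called 65 of 78 lower in liver and 20 of 55 in ileum, which is to be read against those shares of 74.9% and 47%.

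Apart from direction, the genes differed from other short coding genes in several features. Their median table length was 2543 bases in liver and 2318.5 in ileum, against 1925 and 1859.5 for the others, and 18 of 35 and 17 of 44 were 2500 bases or longer, against 301 of 1369 and 253 of 1214 others. Their median coding length in GENCODE M21 was 1194 and 1131 bases, against 715.5 and 681. The median transcript GC content was 49.2% and 46.8%, against 53.5% and 54.6%, and the long coding genes higher in Khk KO had 47.4% and 45.3%. Their median span on the genome was 12663 and 22018 bases, against 7931 and 7187. Their median WT level was 8.41 FPKM in liver and 3.22 in ileum, against 28.8 and 21.3. How these features vary with length among the short genes was not tested, and they are given as descriptions.

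The table's gene length was itself not the full exon length for some of the genes. For 95.1% of genes in the liver table and 94.9% in the ileum table it equalled the length of the merged exons in GENCODE M21. Coding genes at least 1.2 times longer in GENCODE M21 numbered 142 in liver and 126 in ileum, and all but 1, in ileum, lay on chromosomes 17, 18 and 19, with the lowest start on chromosome 17 at 24155833. By the GENCODE M21 length, 9 of the 70 genes would not be short: Ptar1 (2064 bases in the table, 12810 in GENCODE M21), Pggt1b (2736, 11749), Mettl4 (2150, 8036), Ldlrad4 (2493, 5371), Pik3ap1 (2615, 5572), Atad1 (2813, 5995), Exoc6 (2729, 3543), Hpse2 (1779, 4627) and Isoc1 (2563, 3377). They include 4 of the 9 shared genes.

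Genes with a table length under 3000 and a GENCODE M21 length of 3000 or more were higher in Khk KO in 7 of 49 cases in liver (14.3%) and 6 of 39 in ileum (15.4%). Genes short by both lengths were higher in 28 of 1354 (2.07%) and 37 of 1217 (3.04%). On chromosome 18, 4 of 36 short coding genes were higher in liver and 7 of 35 in ileum. Chromosome 17 had 1 of 94 and 4 of 91, and chromosome 19 had 4 of 81 and 3 of 77. Over all chromosomes the shares were 2.49% and 3.50%. With the GENCODE M21 length in the rule, 28 genes remained in liver and 37 in ileum, and 6 of the liver genes were then higher in ileum in place of 10. FPKM values rest on the table's length, and whether reads of these 9 genes were counted over the shorter or the longer model is unknown.

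**Figure D5:**
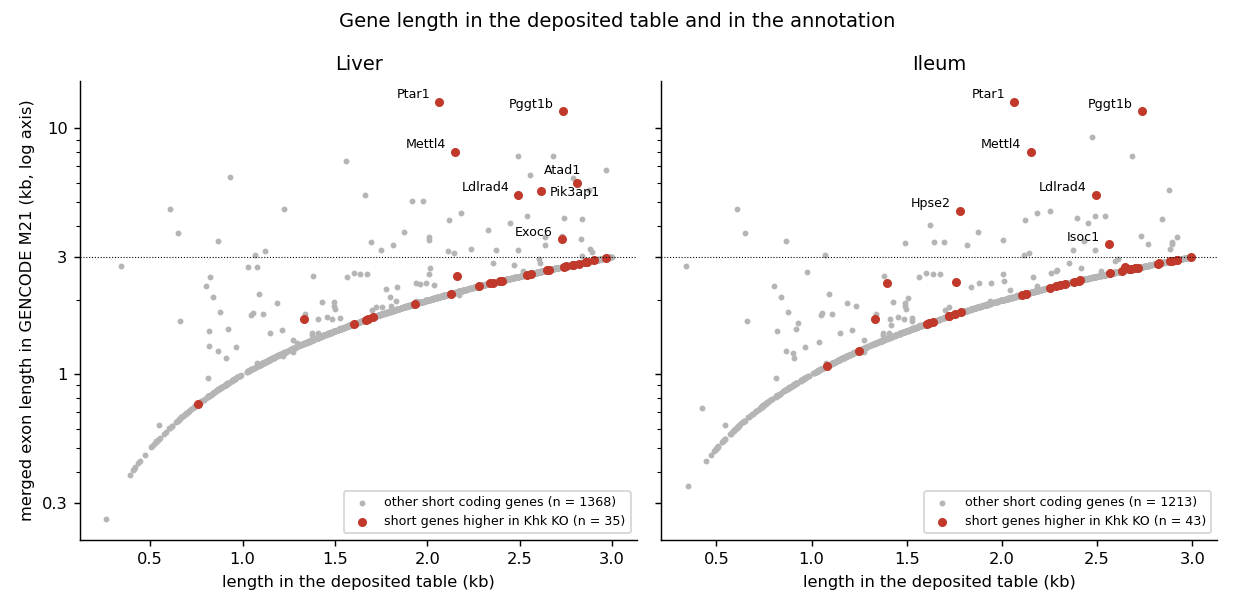
Merged exon length in GENCODE M21 (vertical axis, kb, log axis) against the length in the deposited table (horizontal axis, kb) for short coding genes in liver and ileum, with the genes described here in red and the others in grey; 43 of the 44 ileum genes had a GENCODE M21 length. Most points lie on the curve of equal length, and the 7 named genes in liver and 6 in ileum lie above the dotted line at 3 kb.

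Reads of several genes cannot be assigned with certainty, because the protocol mentions strand-preserving as well as unstranded library preparation, and the strandedness is unknown. An opposite-strand neighbour covered 52.1% of the exons of Ldlrad4 (Fam210a), 69.1% of Ccdc3 (Gm26776), 24.4% of Spry1 (Gm42922) and 23.2% of Ctgf (Gm15270). A same-strand neighbour covered 79.5% of the exons of Cfb (Gm20547), and Bcl2l15 also shared exons with one (Gm43064). Eif3j2, Prps1l3, Gm21887 and Gm14325 have near copies elsewhere in the genome, so their values are uncertain in the same way as those of the Btnl genes and Acnat1.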

How the data were processed

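RNA of 32 libraries (4 Khk KO and 4 WT from each of 4 organs) was analysed from 1 table per organ. The authors deposited raw read counts, counts normalised to library size (a signal scaled by size factors), FPKM values, log2 fold changes, p-values and adjusted p-values per gene. Reads were aligned with HISAT2 2.0.5 to GRCm38/mm10, per the submitters' processing notes. The counting tool and its strand setting are not given in the sources used here. Genes are present in a table where their unadjusted p-value is under 0.05, so every count of genes is a count among those.

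The raw counts were refitted per organ with edgeR 4.0.16 (R 4.3.3; quasi-likelihood test, TMM scaling, filter on low counts, 4 against 4 libraries). Library sizes were the totals implied by the deposited FPKM, and p-values were Benjamini-Hochberg adjusted over the 18225 (liver), 16034 (ileum), 9881 (jejunum) or 15615 (duodenum) genes the authors had adjusted over. An adjusted p under 0.05 was a call. A log2 ratio is that of the mean normalised counts. The length trend was taken out with a lowess curve per library (span 0.5, genes with a mean of at least 10, pseudocount 1) used as an offset. Alternatives were DESeq2 1.42.0, the authors' size factors, other limits on length and mean, a replicate block, and leaving out each library. The edgeR fit was tested on simulated counts. Gene structure came from GENCODE M21, in which 69 of the 70 genes were matched, and upstream sequences from RefSeq (GRCm38.p6).

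The members and gene lists were chosen with earlier results of these data known. Genes were named by fixed limits. These took up to 10 of the largest ratios per organ among called genes without overlap and with a mean of at least 100. They also took the genes called in both organs, called list members, genes beside each threshold, and the shortest and most abundant called genes. The remaining members were named after their values were seen, to account for all 70. Total reads of the listed genes per library set the precision of each count, and no confidence interval for single libraries was computed.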

Additional observations from a re-analysis of the deposited data

Results flagged for a closer look

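A library far from the other 3 of its group was found in 12 of 158 groups of 4 libraries, by a gap to its nearest neighbour above Dixon's critical share of the group's range. Chance gives about 1 in 20 groups. In liver, WT replicate 1 stood above the others for Gpc4 (1121 normalised counts, the others 795 to 828), Klhl11 (65.7, the others 16.2 to 21.2) and Ptar1 (59.1, the others 10.8 to 16.6). WT replicate 4 was high for Spry1 (53.1, the others 33.9 to 37.1), WT replicate 3 was low for Tmem220 (121, the others 216 to 225), and Khk KO replicate 2 was high for Mettl4 (137, the others 86.9 to 95.0).

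In ileum, Khk KO replicate 3 was high for Car1 (5682, the others 0 to 970.3) and for Gm9938 (119, the others 68.2 to 70.3), and Khk KO replicate 4 for Cfb (224, the others 123 to 137). Khk KO replicate 2 was low for Pggt1b (255, the others 287 to 289). WT replicate 2 was low for Dusp19 (49.4, the others 73.3 to 77.6), and WT replicate 4 was high for Zdhhc13 (724, the others 616 to 621).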

How the results depend on the processing

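Over 1212 refitted values of 101 gene and organ pairs, 994 kept direction and side of the threshold, 125 lost the threshold, 92 gained it and 1 turned: Amigo3 in ileum was at 0.0077 on the log2 scale with the length trend taken out. The rule found 7 genes in liver and 14 in ileum below 2000 bases, and 17 and 27 below 2500 bases, in place of 35 and 44. Members called by edgeR numbered 10 in liver and 15 in ileum. DESeq2 called 22 and 30, and edgeR without the length trend 25 and 28. The share of all genes called in these 2 organs was not computed for these alternatives. The higher counts therefore cannot be told from more calls among genes in general. Leaving out 1 library gave 0 to 22 in liver, with 22 without WT replicate 1 and 0 without Khk KO replicate 1 or 2 or WT replicate 4, and 6 to 20 in ileum, with 6 without Khk KO replicate 1 or WT replicate 2. With 1 library left out, the number of genes found ranged from 32 to 38 in liver and from 43 to 45 in ileum. With 1 library left out, the Khk change ranged from -3.31 to -2.91 in liver, -3.99 to -3.62 in ileum, -3.55 to -3.10 in jejunum and -4.37 to -3.98 in duodenum. With the length trend taken out it was -2.52, -3.36, -2.87 and -3.99.

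Of the liver genes called in ileum by the authors' deposited table (8) and those higher there (10), 2 and 2 were counted below 2000 bases, and edgeR gave 1 to 8 calls without 1 library. Of the ileum genes called (7) and higher (11) in liver, 1 and 3 were counted below 2000 bases, 7 were higher at a mean of at least 100, and edgeR gave 0 to 10 calls without 1 library. Below 2000 bases, 4 genes were higher in jejunum in place of 9 and 2 in duodenum in place of 8. With DESeq2, also chosen after seeing the data, 1 gene was called in jejunum in place of 0. With the GENCODE M21 length, an alternative chosen after seeing the data, edgeR called 6 liver members, 6 liver genes were higher in ileum, and 4 ileum genes were called and 6 higher in liver. The lower limits leave fewer genes to count. For the other changes the cause was not tested.

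Same-numbered deviations of Khk KO and WT libraries correlated from -0.10 to 0.06 in liver, -0.16 to -0.01 in ileum, 0.05 to 0.31 in jejunum and -0.27 to 0.23 in duodenum. Differently numbered libraries were not compared, so these values cannot decide whether the replicate numbers pair the libraries. With the replicate number as a block, edgeR called 11 members in liver and 12 in ileum. With the length trend also taken out it called 28 in liver and 20 in ileum. Shares over all genes were not computed for the fits with a block. The Khk change in jejunum was -3.34 with the block and did not pass the threshold.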
